A study of Mus musculus with 16 samples.

Results

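A set of 10 genes for neuronal RNA-binding proteins was followed in neural stem and progenitor cells with and without the histone acetyltransferase KAT7 (HBO1). They are Elavl2, Elavl3 and Elavl4 of the ELAVL (Hu) family, Celf3, Celf4 and Celf5 of the CELF family, Rbfox1 and Rbfox3 of the RBFOX family, and Nova1 and Nova2. The genes were taken by name, through their Entrez identifiers, and are 10 of the 27179 genes in the count files. All 10 were found, and all 10 were among the 15177 genes that passed the filter on low counts. In the RefSeq gene table of GRCm38 the ELAVL genes were Elavl2 (Entrez 15569) at chr4:91211533-91400108, Elavl3 (Entrez 15571) at chr9:22015005-22052146 and Elavl4 (Entrez 15572) at chr4:110203737-110351939. The CELF genes were Celf3 (Entrez 78784) at chr3:94478285-94496786, Celf4 (Entrez 108013) at chr18:25477620-25754520 and Celf5 (Entrez 319586) at chr10:81459227-81482730. The others were Rbfox1 (Entrez 268859) at chr16:5884793-7412480, Rbfox3 (Entrez 52897) at chr11:118489760-118911597, Nova1 (Entrez 664883) at chr12:46697895-46819480 and Nova2 (Entrez 384569) at chr7:18925888-18965319. The paralogs Elavl1, Celf1, Celf2, Celf6 and Rbfox2 are given beside the members.

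ELAVL proteins bind U-rich and AU-rich stretches of mRNAs, mostly in the untranslated tail, and stabilise them or promote their translation. CELF proteins bind GU-rich elements and, like RBFOX and NOVA proteins, which recognise short motifs in introns beside exons, set which alternative exons are kept. The neuronal members switch on as progenitors leave the cell cycle and become neurons, whereas Elavl1, Celf1, Celf2 and Rbfox2 are also made in many dividing cells.

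The groups were null differentiating, intact differentiating, null proliferating and intact proliferating cells, with 4 libraries each. Null cells were Kat7lox/lox NesCreT/+ and intact cells Kat7+/+ NesCreT/+, so both genotypes carried the Nestin-Cre transgene, which is active in neural progenitors. Isolates came from cortices and ganglionic eminences of E14.5 mouse foetuses, 4 per genotype. They were sampled either 3 days after passage 3 in differentiation medium on laminin or 3 days after passage 3 while still proliferating as neurospheres. The match of foetuses across the conditions was not given in the sources used here.

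Polyadenylated RNA had been read as 75-base pairs, and the libraries held 16784286 to 47890535 counts. Kat7 had 0, 1, 0 and 0 counts in the null differentiating libraries, against 3748, 2726, 2643 and 3343 in the intact differentiating libraries. It had 2, 2, 4 and 0 counts in the null proliferating libraries, against 2714, 2671, 3036 and 3144 in the intact proliferating libraries. The 2 intact libraries numbered 1 stood apart from their groups. In intact differentiating replicate 1, 12 pan-neuronal mRNAs (among them Tubb3, Dcx, Map2 and Stmn2) summed to 7580 CPM, against 2210 to 3600 CPM in the other 3. Intact proliferating replicate 1 was the highest of its group for 6 of the 10 members and the lowest for 2. It stood at 0.66 times (Rbfox3) to 7.04 times (Rbfox1) the mean of the other 3. Its pan-neuronal sum, in which abundant mRNAs weigh most, was 1340 CPM, against 1490 to 1510 CPM in the others. A sum of 7 astrocyte mRNAs was 783 CPM in this library, against 343 to 381 CPM in the others. CPM, the unit of level used here, is the count scaled to library size after TMM normalisation. Where leaving out both changed the call of a member or moved its fold change by over 1.5 times, the value without them is given.

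Neuronal paralogs resemble each other in their coding parts, so it matters whether reads can be assigned. The windows below are 75 coding bases, 1 read length, 5′ to 3′, with the bases that differ within a family in capitals. They were chosen within single exons of the transcript with the longest coding part. The windows taken were those most alike among the paralogs shown, by the summed differences from the first paralog listed. They show how far reads of the paralogs differ in a stretch alike by this measure, not in a typical stretch. A given pair may be closer elsewhere, and Elavl1 was not part of the search. They are from the GENCODE M21 transcripts, GRCm38, at chr4:91281243-91281317, minus strand (Elavl2), chr9:22036341-22036415, minus strand (Elavl3), chr4:110226574-110226648, minus strand (Elavl4), chr16:7292197-7292271, plus strand (Rbfox1), chr15:77105583-77105657, minus strand (Rbfox2) and chr11:118502848-118502922, minus strand (Rbfox3).
Elavl2: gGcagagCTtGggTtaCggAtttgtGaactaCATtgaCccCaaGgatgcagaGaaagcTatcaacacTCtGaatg
Elavl3: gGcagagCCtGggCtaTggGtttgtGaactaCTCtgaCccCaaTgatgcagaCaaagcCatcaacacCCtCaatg
Elavl4: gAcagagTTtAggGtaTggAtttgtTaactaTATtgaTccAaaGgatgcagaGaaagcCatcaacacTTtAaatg
Rbfox1: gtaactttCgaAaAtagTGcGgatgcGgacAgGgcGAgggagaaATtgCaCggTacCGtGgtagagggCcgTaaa
Rbfox2: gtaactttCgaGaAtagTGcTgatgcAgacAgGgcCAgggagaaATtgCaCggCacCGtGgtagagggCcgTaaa
Rbfox3: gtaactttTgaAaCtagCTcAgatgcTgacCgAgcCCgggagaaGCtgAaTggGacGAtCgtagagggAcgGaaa
In this window Elavl3 differed from Elavl2 at 11 and from Elavl4 at 17 of 75 bases, and Elavl2 from Elavl4 at 12. Rbfox1 differed from Rbfox2 at 5 bases and from Rbfox3 at 20. Over all annotated transcripts, 0 of the 75-base windows of any member also occurred in a paralog of its family. Some windows were shared with other annotated genes: 30.25% for Nova2 (the opposite-strand Gm26821), 7.06% for Celf5 (the opposite-strand Gm16105), 2.72% for Nova1 (Gm33869) and 2.61% for Elavl3 (Gm49318). With strandedness of the counting not given in the sources used here, reads of Nova2 and Celf5 cannot be told apart from those of their antisense neighbours in these stretches.

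Rbfox1 and Celf5 had the lowest fold changes of the 10 in null differentiating cells, and Elavl4 was the member with a value above 0. The 250 bases before the outermost start of each in the RefSeq promoter table (GRCm38.p6) are given here, with each CG pair in capitals. CG density is a property by which promoters differ widely. The table lists 2 starts for Rbfox1, 5 for Celf5 and 4 for Elavl4, and which of them these cells used was not tested. The stretches are chr16:5884543-5884792, plus strand (Rbfox1), chr10:81482700-81482949, minus strand (Celf5) and chr4:110351912-110352161, minus strand (Elavl4).
Rbfox1: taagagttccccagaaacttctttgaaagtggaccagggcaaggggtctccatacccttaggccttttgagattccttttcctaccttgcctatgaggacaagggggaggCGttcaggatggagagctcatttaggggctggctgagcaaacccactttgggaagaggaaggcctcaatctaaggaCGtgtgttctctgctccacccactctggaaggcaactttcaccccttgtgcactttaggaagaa
Celf5: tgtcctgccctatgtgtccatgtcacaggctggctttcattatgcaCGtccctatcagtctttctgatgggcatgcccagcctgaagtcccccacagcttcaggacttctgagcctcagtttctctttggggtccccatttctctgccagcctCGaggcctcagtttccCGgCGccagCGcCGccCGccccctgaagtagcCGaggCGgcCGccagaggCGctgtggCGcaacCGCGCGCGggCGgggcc
Elavl4: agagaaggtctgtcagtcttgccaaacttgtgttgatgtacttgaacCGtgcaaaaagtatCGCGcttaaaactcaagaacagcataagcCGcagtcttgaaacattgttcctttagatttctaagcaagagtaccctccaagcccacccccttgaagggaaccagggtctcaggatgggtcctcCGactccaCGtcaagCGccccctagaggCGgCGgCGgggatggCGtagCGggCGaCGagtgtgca
Rbfox1 held 2 CG pairs at 51.2% GC, Celf5 17 at 64.4% and Elavl4 14 at 53.6%. The median of 16783 protein-coding promoters was 10 CG pairs and 55.6% GC. Rbfox3 (3 pairs) and Celf3 (4) were also low in CG, while Elavl3 had 20. The only start listed for Rbfox3 put its window at chr11:118761042-118761291, inside the gene as placed above. The same was so for Nova1 (chr12:46818768-46819017), so the values of both hold for these starts only. Rbfox1 and Celf5 differed in CG density at these starts, and Celf4 was not in the table. Of 5 motifs searched on both strands, the letters CAGCACC, part of the site of the neuronal repressor REST, were in none of the 9 members in the table and in 5.7% of all these promoters. GGACAG, another part of that site, was in Elavl2 and in 19.0% of promoters. The E-box letters CAGCTG were in Elavl3, Celf3 and Nova1 (11.7% of promoters), CATCTG in none (12.4%), and TATAAA in Elavl3 and Celf3 (12.2%). These matches describe the letters in the window only.

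In differentiating cells of both genotypes, Elavl3 was the most abundant member. Levels of different genes are compared per kilobase of gene model. Elavl3 stood at 38.3 ± 2.48 CPM per kilobase in null and 79.3 ± 28.8 in intact differentiating cells (mean ± SD, n = 4 each). In null differentiating cells Elavl4 (24.7 ± 5.52) and Nova1 (22.6 ± 1.62) followed, and these neighbours did not differ beyond their spread. Celf3 (14.3 ± 0.965) was clear of Nova2 (10.8 ± 0.933). Nova2 and Elavl2 (9.29 ± 0.880) overlapped between libraries, although Nova2 was above Elavl2 within every null differentiating library. Rbfox3 (5.58 ± 0.427), Celf4 (3.46 ± 0.292), Celf5 (1.61 ± 0.209) and Rbfox1 (0.00362 ± 0.00499) formed separate steps below them. In intact differentiating cells Elavl3 was clear of the next member, Celf3, by the mean ± SD and narrowly by library, with 55.0 in the lowest library for Elavl3 and 54.3 in the highest for Celf3. In an order of members and paralogs by mean ± SD, no gene there was clear of its neighbour, and Elavl3 overlapped the paralog Celf2 (43.0 ± 26.0). Within each intact differentiating library, however, Elavl3 was above Celf2 (119, 61.9, 80.9 and 55.0, against 80.8, 33.2, 36.6 and 21.4).

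In proliferating cells the order was different. Among the members Nova1 led, with 10.7 ± 2.07 CPM per kilobase in null cells and 14.3, 14.4, 14.3 and 15.1 in the 4 intact libraries. Elavl4 came next with 10.1 ± 2.32 in null cells, which overlapped Nova1 there, and 11.7 ± 1.48 in intact cells. Celf3, Celf4 and Celf5 were each at or below 1.41 CPM per kilobase on average in both genotypes, and Rbfox1 was at 0.00905 ± 0.0181 in null and 0.136 ± 0.164 in intact cells.

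**Figure D1:**
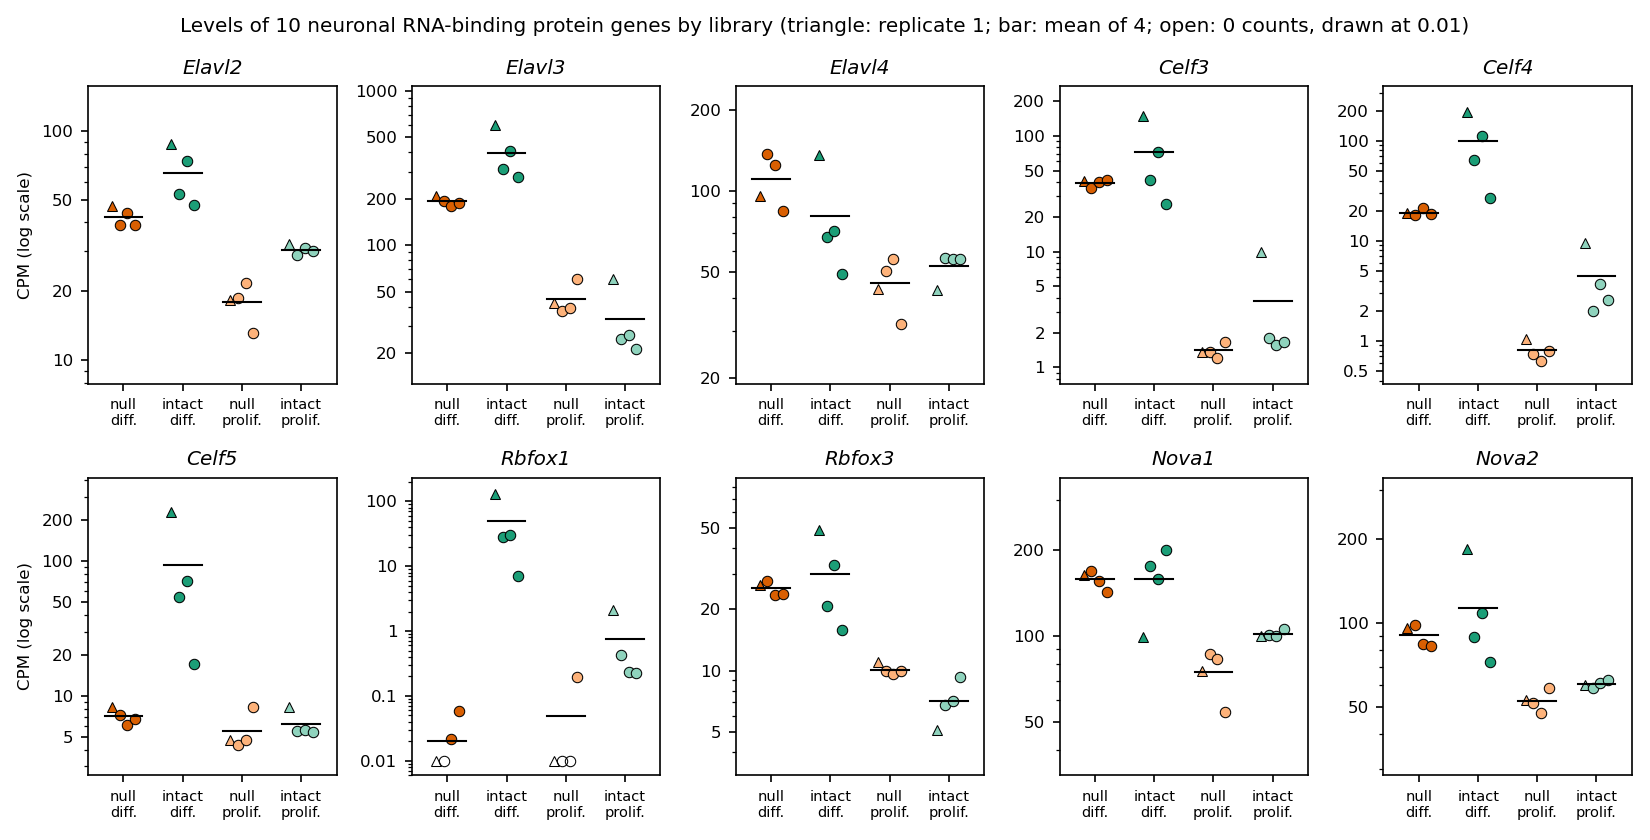
Level of each of the 10 genes in every library, in CPM on a log axis, by group (orange, null; green, intact; dark, differentiating; light, proliferating). Triangles are replicate 1, horizontal bars are means of 4 libraries, and open symbols at 0.01 are libraries with 0 counts. Rbfox1 and Celf5 lie far lower in the null than in the intact differentiating libraries, while Elavl4, Rbfox3, Nova1 and Nova2 overlap there. The 4 intact differentiating libraries are widely spread and the 4 null ones lie close together.

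The first question was how the genotypes differed once the cells were differentiating. Of the 10 members, 5 were lower in null cells (Rbfox1, Celf5, Celf4, Elavl3 and Elavl2), 0 were higher and 5 did not pass edgeR's quasi-likelihood test at an adjusted p under 0.05. Over all 15177 genes tested, 22.0% were called lower and 24.3% higher in this comparison (46.4% in either direction). The median log2 fold change was -0.75 over the members and 0.04 over all genes. In the same 5 members all 4 null libraries lay below all 4 intact ones, which was so for 20.4% of all genes (24.9% lay above). Scaling by library size alone called the same number of members, 5 lower and 0 higher, but put 60.6% of all called genes lower, against 47.5% with the TMM scaling used here. Without both intact libraries numbered 1, 5 members were lower and 1 was higher (Elavl4), against 23.0% and 26.6% of all genes (49.6% in either direction). In RNA from whole cultures, fewer cells of a type and less RNA per cell cannot be told apart.

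Rbfox1 showed the widest difference. This splicing factor acts in maturing neurons and muscle. It had 0, 0, 1 and 2 counts in the null differentiating libraries, against 4536, 769, 784 and 238 counts in the intact differentiating libraries, or 0 to 0.058 CPM against 130, 28.6, 30.4 and 7.13 CPM. The groups were far apart, although the intact libraries themselves spanned a wide range. The null level was 0.0402% of the intact level (95% counting interval 0.00828 to 0.117%), and edgeR's quasi-likelihood test gave a log2 fold change of -10.91 ± 1.30 (SE, adjusted p = 8.9e-06). Counting intervals cover counting error only. With both intact libraries numbered 1 left out it was -9.76 ± 0.79 (adjusted p = 2.5e-07), and without null differentiating replicate 4, which held 2 of the 3 counts, -11.81 by edgeR (adjusted p = 7.1e-05).

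Rbfox3, whose product is the nuclear antigen NeuN used to mark postmitotic neurons, did not share this. It had 26.3, 27.7, 23.6 and 23.9 CPM in null, against 49.3, 20.7, 33.1 and 15.8 CPM in intact differentiating cells. The groups overlapped, and the null libraries lay inside the intact range. On the log2 scale the difference was -0.23 (95% interval -0.74 to 0.29, edgeR adjusted p = 0.5). Rbfox2, the broadly made paralog, stood at 155 ± 6.45 CPM in null, against 290 ± 183 CPM in intact cells. It was called lower in null cells (-0.91 ± 0.28, edgeR adjusted p = 0.0147), but the libraries overlapped. Without both intact libraries numbered 1 the value was -0.38 (edgeR adjusted p = 0.0239), and with the 8 differentiating libraries alone the call was lost (adjusted p = 0.061).

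Celf5 and Celf4 of the CELF family, splicing regulators made mainly in the nervous system, were both lower. Celf5 had 8.23, 7.23, 6.05 and 6.73 CPM in null, against 231, 54.4, 71.6 and 17.3 CPM in intact differentiating cells. Every intact library was above every null library. Its fold change on the log2 scale was -3.73 ± 0.57 (edgeR adjusted p = 8.6e-05), and -2.76 ± 0.35 without both intact libraries numbered 1 (edgeR adjusted p = 2.0e-05).

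Celf4, a CELF protein of excitatory neurons whose loss gives seizures in mice, had 18.8, 18.0, 21.5 and 18.4 CPM in null, against 196, 64.5, 111 and 26.6 CPM in intact differentiating cells. The null libraries were again low and close together, with no overlap. The log2 difference was -2.38 ± 0.50 (edgeR adjusted p = 0.00115) and -1.81 ± 0.32 without both intact libraries numbered 1 (adjusted p = 0.00034).

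Celf3 was different from both. It had 40.3, 35.4, 40.1 and 41.3 CPM in null, against 149, 41.2, 72.2 and 25.9 CPM in intact differentiating cells, and the null libraries fell within the intact range. Its log2 fold change of -0.88 (95% interval -1.89 to 0.14) did not pass the test (edgeR adjusted p = 0.184) and was -0.24 without both intact libraries numbered 1. Among the paralogs, Celf6 was lower in null cells with 1.74 ± 0.0961 CPM, against 9.04 ± 8.81 CPM in intact cells (-2.37 ± 0.54, edgeR adjusted p = 0.00209, and -1.44 without both intact libraries numbered 1). Celf2, at 225 ± 0.973 CPM in null, against 409 ± 248 CPM in intact cells, was called lower (-0.86, edgeR adjusted p = 0.0161) with overlapping libraries, and the value was -0.36 without both intact libraries numbered 1 (edgeR adjusted p = 0.0331). Its call was lost with the 8 differentiating libraries alone (adjusted p = 0.064). Celf1 was slightly higher in null cells (0.23 ± 0.08, adjusted p = 0.0287), a call lost under 10 of the alternatives.

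The ELAVL members did not move together. Elavl3 (HuC), a marker of neurons from their birth on, had 209, 194, 179 and 189 CPM in null, against 599, 311, 407 and 276 CPM in intact differentiating cells. All null libraries were below all intact ones. The log2 fold change was -1.05 ± 0.30 (edgeR adjusted p = 0.00945), and -0.79 ± 0.15 without both intact libraries numbered 1 (adjusted p = 0.00071).

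Elavl2 (HuB) had 47.1, 39.0, 44.1 and 39.0 CPM in null, against 87.7, 53.2, 74.0 and 47.8 CPM in intact differentiating cells. The highest null library lay just below the lowest intact one. On the log2 scale the difference was -0.63 ± 0.17 (edgeR adjusted p = 0.00705). Elavl4 (HuD), linked to neurite growth, had 95.9, 137, 125 and 84.4 CPM in null, against 136, 67.5, 70.9 and 49.2 CPM in intact differentiating cells. Only intact replicate 1 overlapped the null libraries, and the other 3 intact libraries were below all of them. Its log2 fold change of 0.45 ± 0.26 did not pass the test with all libraries (edgeR adjusted p = 0.170). With both intact libraries numbered 1 left out, Elavl4 was higher in null cells (0.82 ± 0.19, edgeR adjusted p = 0.00288), as it was without intact differentiating replicate 1 alone (adjusted p = 0.0041). Elavl1 (HuR), made in most cells, had 92.6 ± 5.02 CPM in null, against 95.4 ± 7.02 CPM in intact cells (log2 fold change -0.04, 95% interval -0.19 to 0.10, edgeR adjusted p = 0.648).

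Neither NOVA gene passed the test in differentiating cells. Nova1, a regulator of splicing of synaptic proteins, had 164, 170, 156 and 143 CPM in null, against 99.4, 176, 159 and 200 CPM in intact cells. Here intact replicate 1 was the lowest of the 8 libraries, while it was the highest of the 4 intact ones for the other 9 members. The log2 difference was -0.00 (95% interval -0.33 to 0.33, edgeR adjusted p = 0.995). Nova2, which also regulates splicing in developing cortex, had 96.1, 98.3, 84.6 and 83.0 CPM in null, against 185, 89.0, 109 and 72.6 CPM in intact cells, with overlap (log2 fold change -0.33, 95% interval -0.73 to 0.06, edgeR adjusted p = 0.191). The value depended on single libraries: it was 0.00 without intact differentiating replicate 1 (edgeR adjusted p = 0.99), and -0.50 and called lower without intact differentiating replicate 4 (0.032).

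**Figure D2:**
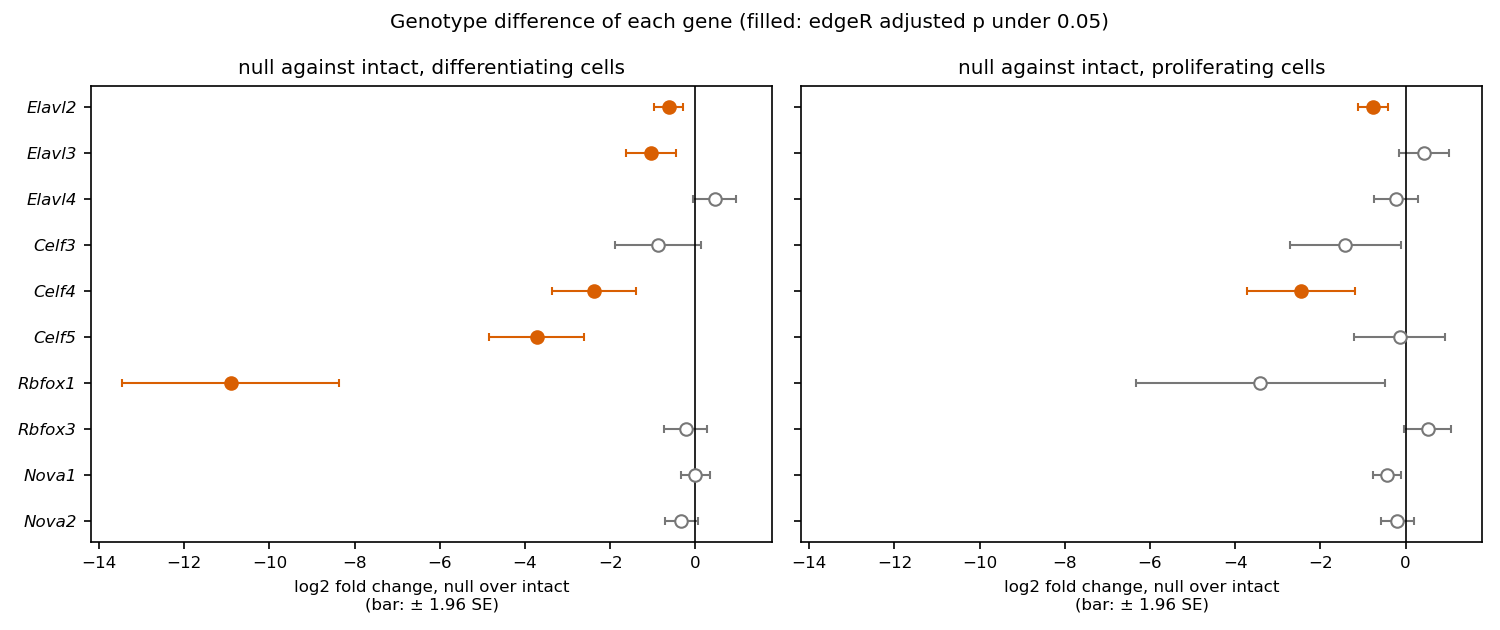
Log2 fold change of each gene, null over intact, in differentiating (left) and proliferating (right) cells, with bars for the 95% interval. Filled orange points passed edgeR's quasi-likelihood test at an adjusted p under 0.05. In differentiating cells Rbfox1, at -10.91, lies far below Celf5 at -3.73 and Celf4 at -2.38, and in proliferating cells Elavl2 and Celf4 are filled.

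In proliferating cells 2 of the 10 members were lower in null cells, Celf4 and Elavl2, and 0 were higher by edgeR's quasi-likelihood test. Over all genes tested, 19.7% were called lower and 19.0% higher (38.6% in either direction), so the members' share called lower was near the background. Scaling by library size alone put 63.3% of called genes lower, against 50.9% with TMM, and 3 members were then called lower (Nova1 was added). The median log2 fold change was -0.33 over the members and -0.01 over all genes. Groups did not overlap for 4 members that were lower in null cells (Elavl2, Celf4, Rbfox1 and Nova1) and for 1 that was higher (Rbfox3), against 19.7% and 19.2% of all genes. Without both intact libraries numbered 1, 3 members were lower (Elavl2, Celf4 and Nova1) and 1 was higher (Elavl3), against 24.1% of all genes in each direction (48.2% together).

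Elavl2 had 18.4, 18.7, 21.8 and 13.2 CPM in null, against 32.2, 28.8, 31.0 and 29.9 CPM in intact proliferating cells. The intact libraries agreed closely and all lay above the null ones. The log2 fold change was -0.76 ± 0.18 (edgeR adjusted p = 0.00327), close in size to that in differentiating cells. Celf4 was at a low level in both genotypes, with 1.05, 0.740, 0.624 and 0.794 CPM in null, against 9.59, 2.0, 3.73 and 2.57 CPM in intact proliferating cells. Its log2 fold change was -2.46 ± 0.65 (edgeR adjusted p = 0.00745), and -1.77 ± 0.50 without both intact libraries numbered 1 (adjusted p = 0.00997).

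Elavl3 had 42.0, 37.2, 39.2 and 60.4 CPM in null, against 60.5, 24.8, 26.2 and 21.1 CPM in intact proliferating cells. Of the intact libraries only replicate 1 reached the null values, just above the highest of them. A log2 difference of 0.44 ± 0.30 did not pass the test (edgeR adjusted p = 0.275), but without both intact libraries numbered 1 Elavl3 was higher in null cells (0.90 ± 0.17, edgeR adjusted p = 0.00060), and likewise without intact proliferating replicate 1 alone (adjusted p = 0.0075). With or without these libraries, the value had the opposite sign to the one in differentiating cells.

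Nova1 had 75.9, 86.7, 83.2 and 54.5 CPM in null, against 100, 101, 100 and 106 CPM in intact proliferating cells, with no overlap. Its fold change on the log2 scale was -0.44 ± 0.17 and missed the threshold (edgeR adjusted p = 0.0552). Under 8 of 24 alternatives, among them DESeq2 (adjusted p = 0.030) and the fit without both intact libraries numbered 1 (edgeR adjusted p = 0.0102), it was called lower. Rbfox3 had 11, 9.93, 9.69 and 9.98 CPM in null, against 5.14, 6.77, 7.14 and 9.32 CPM in intact proliferating cells. Every null library was above every intact one, but the log2 fold change of 0.52 ± 0.28 did not pass the test (edgeR adjusted p = 0.154). It was called with the 8 proliferating libraries alone (adjusted p = 0.038).

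Rbfox1 was close to the limit of detection in proliferating cells. It had 0, 0, 0 and 7 counts in null libraries, against 43, 8, 5 and 5 counts in intact libraries, or a null level of 9.15% of the intact level (95% counting interval 3.53 to 20%). The 7 counts were from a single null library. The log2 difference of -3.41 ± 1.49 did not pass edgeR's test (adjusted p = 0.0762), and it was -2.07 without both intact libraries numbered 1 (adjusted p = 0.144). DESeq2 called it (adjusted p = 0.017), as did edgeR without intact differentiating replicate 1 (0.020) or 4 (0.039). For Celf3 (1.40 ± 0.196 CPM in null, against 3.76 ± 4.18 CPM in intact cells), Celf5 (5.52 ± 1.88 and 6.18 ± 1.37), Elavl4 (45.3 ± 10.4 and 52.6 ± 6.65) and Nova2 (52.9 ± 4.60 and 60.5 ± 1.69), libraries overlapped and edgeR's adjusted p was 0.105, 0.864, 0.550 and 0.481. Nova2 was called lower with the 8 proliferating libraries alone (-0.2, edgeR adjusted p = 0.047). Intact replicate 1 set the Celf3 mean of intact cells. The other 3 intact libraries had 1.57 to 1.79 CPM, close to the 1.21 to 1.67 CPM of the null libraries, and the log2 fold change was -1.41 with and -0.24 without that library.

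The next question was how each gene changed upon differentiation within a genotype. In null cells 8 of the 10 members rose and 0 fell (edgeR's quasi-likelihood test), against 34.6% of all genes called higher and 34.4% lower. In intact cells all 10 rose, against 36.7% higher and 35.3% lower. The median log2 fold change of the members was 1.26 in null and 2.83 in intact cells, against 0.02 over all genes in both. In null cells 8 members had every differentiating library above every proliferating one, against 33.8% of all genes (33.2% lay below), and in intact cells also 8, against 31.1% (31.8% below). Over all genes 69.0% changed in null and 72.0% in intact cells. With both intact libraries numbered 1 left out, 8 members rose in null cells, against 37.6% of all genes higher and 36.7% lower (74.3% together), and 9 in intact cells, against 37.2% and 36.2% (73.4% together).

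Celf3 and Celf4 rose most in null cells, and both rose in intact cells. Celf3 rose by 4.79 ± 0.65 on the log2 scale in null (edgeR adjusted p = 1.1e-05) and by 4.26 ± 0.61 in intact cells (1.9e-05). Its rise in intact cells was 5.42 without intact proliferating replicate 1 and 3.62 without intact differentiating replicate 1, and the difference of the responses, null minus intact, was 0.53 with all libraries (edgeR adjusted p = 0.680), -0.63 without the first of these (0.52) and 1.17 without the other (0.28). Celf4 rose by 4.56 ± 0.63 in null (1.2e-05) and by 4.47 ± 0.56 in intact cells (4.9e-06), or 5.15 without intact proliferating replicate 1. The difference between the responses of Celf4, null minus intact, was 0.08 with a 95% interval of -1.52 to 1.68 (edgeR adjusted p = 0.952). The lower level of Celf4 in null cells was thus present before and after differentiation, at -2.46 and -2.38 on the log2 scale.

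Celf5 behaved otherwise. It rose by 3.92 ± 0.58 in intact cells (edgeR adjusted p = 2.4e-05), or 3.12 without both intact libraries numbered 1 and 2.95 without intact differentiating replicate 1, while null differentiating and null proliferating libraries overlapped at 6.05 to 8.23 and 4.32 to 8.33 CPM (0.33 ± 0.54, adjusted p = 0.598). The difference of the responses was -3.59 ± 0.77 (edgeR adjusted p = 0.00428) and -2.79 ± 0.52 without both intact libraries numbered 1 (adjusted p = 0.00131). It was called in 23 of 23 alternatives.

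Elavl3 rose in both genotypes, by 2.10 ± 0.31 in null (edgeR adjusted p = 2.3e-05) and by 3.59 ± 0.33 in intact cells (2.0e-07). The difference was -1.49 ± 0.42 (edgeR adjusted p = 0.0210) and -1.69 ± 0.23 without both intact libraries numbered 1 (adjusted p = 0.00012), also called in 23 of 23 alternatives. Celf5 and Elavl3 were the 2 of 10 members whose response was called different between genotypes, both lower in null cells. Over all genes 9.93% had a lower and 12.7% a higher response in null cells (22.7% in either direction). The members' share called in either direction was thus near the background. Without both intact libraries numbered 1 the response was lower in null cells for 3 members (Rbfox1 was added) and higher for 1 (Elavl4), against 13.8% and 16.3% of all genes (30.1% together).

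Rbfox1 rose by 6.04 ± 0.90 in intact cells (edgeR adjusted p = 2.7e-05), or 7.38 without intact proliferating replicate 1 and 4.89 without intact differentiating replicate 1. In null cells it had 3 counts in all differentiating and 7 counts in all proliferating libraries, a ratio of 31.3% with a counting interval of 5.22 to 137%. The difference of the responses was -7.51 ± 3.23 and did not pass the test (edgeR adjusted p = 0.0998). It was called by DESeq2 (-7.53, adjusted p = 0.0016) and without both intact libraries numbered 1 (edgeR, -7.69 ± 2.05, adjusted p = 0.0102). Without null proliferating replicate 4, which held all 7 counts of its group, it was not called (adjusted p = 0.98).

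Elavl4 rose by 1.29 ± 0.27 in null cells (edgeR adjusted p = 0.00050). Its rise in intact cells, 0.62 ± 0.26 (adjusted p = 0.0445), rested on replicate 1, since without both intact libraries numbered 1 it was 0.16 ± 0.21 (adjusted p = 0.495). The difference of the responses was 0.67 (adjusted p = 0.211), and 1.13 ± 0.27 without these libraries (edgeR adjusted p = 0.00677), a greater response in null cells. Elavl2 rose by 1.23 ± 0.18 in null (edgeR adjusted p = 1.7e-05) and 1.11 ± 0.17 in intact cells (4.4e-05), with a difference of 0.13 (95% interval -0.35 to 0.61, adjusted p = 0.741).

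Rbfox3 rose by 1.32 ± 0.27 in null and 2.07 ± 0.28 in intact cells (edgeR adjusted p = 0.00048 and 1.0e-05), and the difference of -0.74 had a 95% interval of -1.49 to 0.00 (adjusted p = 0.174). That difference was -0.26 without both intact libraries numbered 1, and was called without intact differentiating replicate 4 (-0.95, edgeR adjusted p = 0.040). Nova1 rose by 1.08 in null and 0.64 in intact cells (edgeR adjusted p = 5.3e-05 and 0.00359), and Nova2 by 0.77 and 0.91 (0.00333 and 0.00092). The NOVA differences were 0.44 (95% interval -0.04 to 0.91) and -0.14 (-0.70 to 0.42), with edgeR adjusted p of 0.208 and 0.756. Among the paralogs, Elavl1 fell upon differentiation by 0.36 in null and 0.29 in intact cells (edgeR adjusted p = 0.00041 and 0.00226), and Rbfox2 rose by 0.81 and 1.60 (0.0175 and 0.00013), the value in intact cells being 1.04 without both intact libraries numbered 1.

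**Figure D3:**
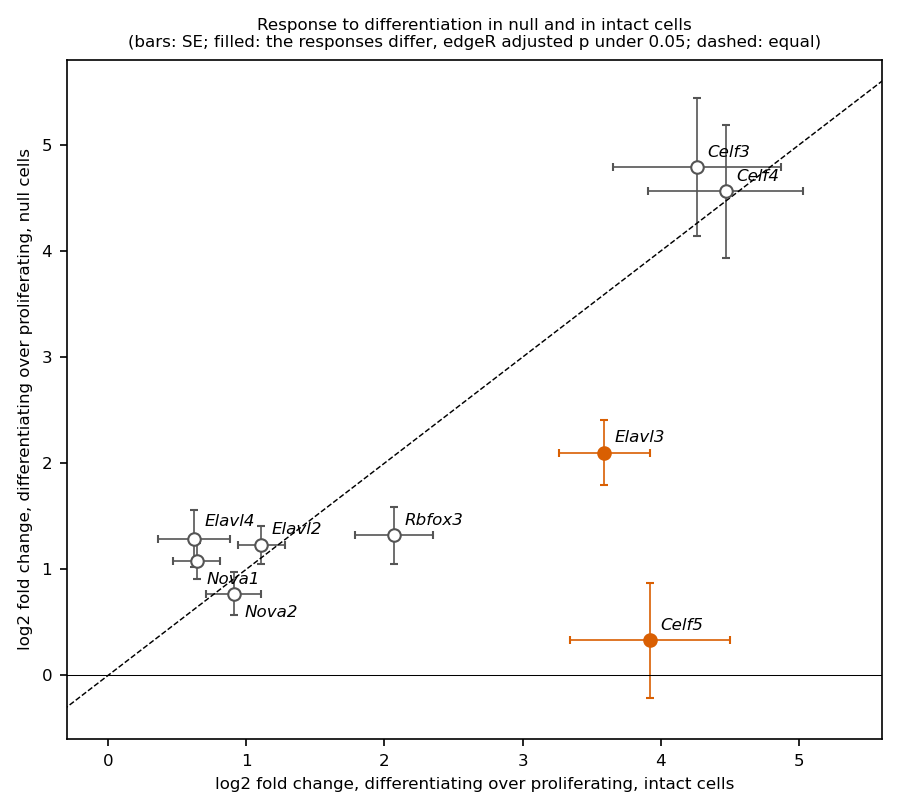
Log2 fold change upon differentiation in null cells (vertical axis) against that in intact cells (horizontal axis) for 9 genes, with bars of SE and a dashed line where both are equal. Rbfox1 is left out because the null groups held 3 and 7 counts. Elavl3 and Celf5, filled, lie below the line. Celf5 is near 0 in null cells, while Celf3 and Celf4 lie beside the line above 4.

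The shares of the paralogs within a family differed between groups. Elavl3 was the main ELAVL mRNA in differentiating cells of both genotypes. ELAVL mRNAs summed to 87.6 ± 5.99 CPM per kilobase in null and 128 ± 40.9 in intact differentiating cells. Elavl3 made up 46.9, 40.9, 40.5 and 47.1% of this sum in null libraries, against 64.5, 60.0, 63.0 and 58.6% in intact libraries. Elavl4 made up 24.1, 32.5, 31.8 and 23.6% in null libraries, against 16.4, 14.6, 12.3 and 11.7% in intact libraries. Neither share overlapped between genotypes, and intact replicate 1 was not an exception. In proliferating cells Elavl1 was the main family member with 46.2 ± 1.35% in null and 43.7 ± 3.80% in intact cells.

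In the RBFOX family Rbfox2 was the main mRNA everywhere, with 79.0 ± 1.40% in null and 74.0 ± 4.89% in intact differentiating cells. Rbfox1 made up 0.0139 ± 0.0190% of the family in null libraries, against 21.5, 13.5, 11.9 and 5.37% in the intact differentiating libraries. The remainder in null cells was Rbfox3 at 21.0 ± 1.41%, against 12.9 ± 2.59% in intact cells. In the CELF family, Celf1 and Celf2 made up 47.6 ± 2.27% and 28.4 ± 1.07% in null differentiating cells, against 28.4 ± 12.7% and 29.4 ± 1.86% in intact ones. Celf5 was at 1.92 ± 0.184% in null and 12.2 ± 5.82% in intact cells, Celf4 at 4.15 ± 0.437% and 11.4 ± 3.51%, and Celf3 at 17.2 ± 1.36% and 16.7 ± 3.64%. Nova1 made up 67.7 ± 0.808% of NOVA mRNA in null and 62.4 ± 16.4% in intact differentiating cells, where replicate 1 was the lowest at 39.1%. These shares are descriptions and were not tested.

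**Figure D4:**
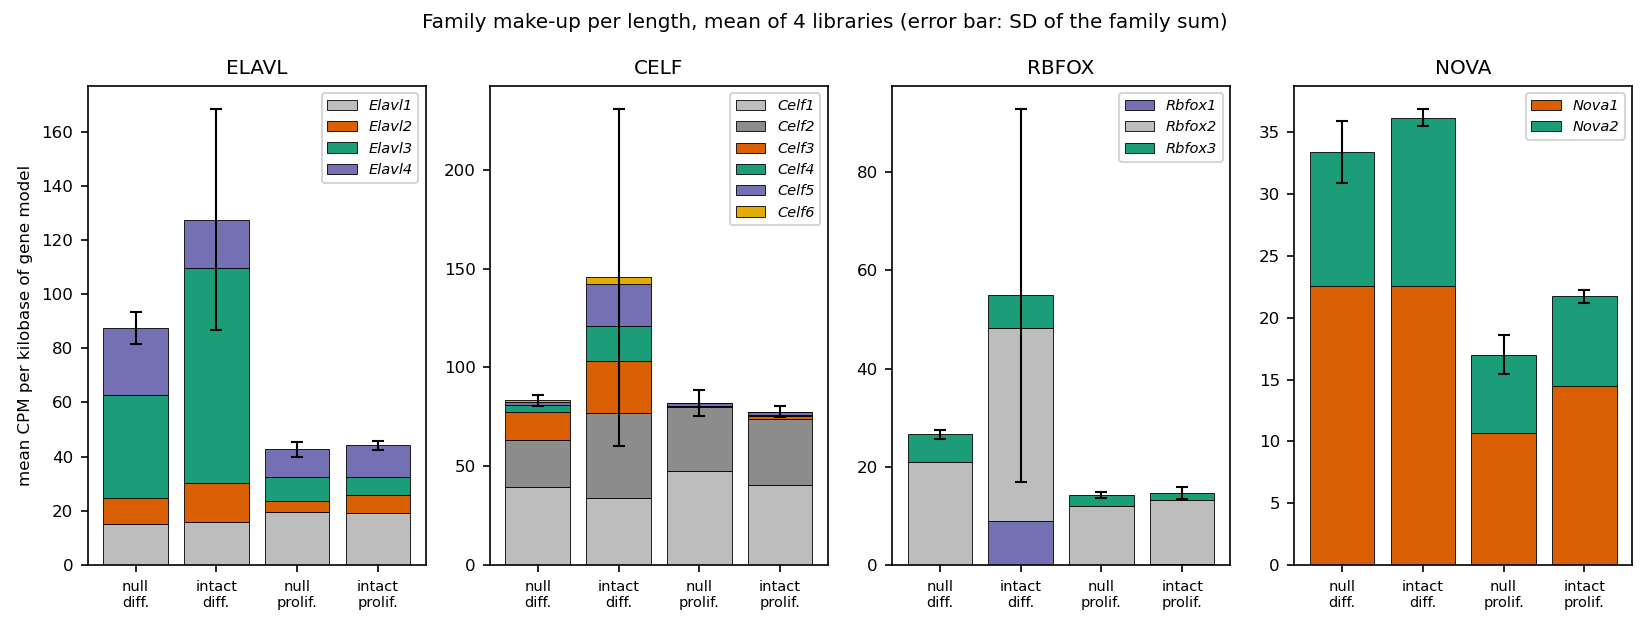
Mean CPM per kilobase of each family by group, stacked by paralog, with an error bar for the SD of the family sum over 4 libraries. In null differentiating cells the ELAVL bar has a smaller Elavl3 and a larger Elavl4 section than in intact ones, the RBFOX bar shows no visible Rbfox1 section, and the CELF bar has narrower Celf4 and Celf5 sections. The family sums of intact differentiating cells have wide error bars for ELAVL, CELF and RBFOX.

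How much the members varied between libraries differed by group. Leaving out Rbfox1, the coefficient of variation of the other 9 members was 6.48 to 22.4% (median 8.46%) in null and 27.0 to 101% (median 46.9%) in intact differentiating cells. In intact differentiating cells replicate 1 was the highest library for 9 members and replicate 4 the lowest for the same 9, and for Nova1 the order was the reverse. Replicate 1 stood at 0.56 times (Nova1) to 5.88 times (Rbfox1) the mean of the other 3. The summed pan-neuronal mRNAs had the same extremes, with 7580, 3060, 3600 and 2210 CPM in replicates 1 to 4. In null differentiating cells they were 2880, 2780, 2500 and 2460 CPM, within the range of intact replicates 2 to 4. Abundant mRNAs weigh most in such a sum, and the median fold change of the listed genes is given below. The part of this spread in the genotype differences beyond the fits without the libraries numbered 1 was not tested.

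Marker lists of other cell types also differed between genotypes, and their part in the members' results was not tested. Beside the counts below, 22.0% of all genes were called lower and 24.3% higher in null differentiating cells. Of the pan-neuronal list, 8 of 12 mRNAs were lower and 1 was higher in null differentiating cells by edgeR (median log2 fold change -2.14, and -1.43 without both intact libraries numbered 1). Of the members, Rbfox1, Celf5 and Celf4 lay below that median and the other 7 above it. Of 7 astrocyte genes, 4 were higher in null differentiating cells and 0 lower, with sums of 3020 to 5050 CPM in null, against 884 to 1800 CPM in intact libraries. Of 8 stem cell and radial glia genes, 6 were higher and 0 lower, with sums of 5000 to 6650 and 3280 to 4320 CPM. Of 8 oligodendrocyte lineage genes, 5 were lower and 0 higher, with sums of 1900 to 2370 and 3580 to 6930 CPM. Intact differentiating replicate 1 held the low end of the intact astrocyte sums (884 CPM, others 1550 to 1800 CPM). It also held that of the oligodendrocyte lineage sums (3580 CPM, others 5700 to 6930 CPM). Pericyte and smooth muscle genes summed to 16.3 to 23.4 CPM in null and 28.9 to 37.2 CPM in intact differentiating cells, and to 34.6 to 124 and 3.47 to 6.64 CPM in null and intact proliferating cells. The microglial markers Cx3cr1, Aif1 and Ptprc had 0 counts in all proliferating libraries. Microglial genes summed to at most 0.63 CPM and endothelial genes to at most 4.59 CPM in any library.

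For each member, the tested genes with the most similar pattern were found by the root mean square difference of log2 CPM, each gene centred on its own mean, over the 16 libraries and 12341 genes. Celf3 was closest to Tubb3, the neuronal beta-tubulin (0.28), and Elavl3 to Apba1, an adaptor of the presynaptic terminal (0.27), and Kifc2 (0.30). Celf4 was closest to Shisa7 (0.44) and Kif5a, a neuronal kinesin (0.45), Celf5 to Sptbn4, a spectrin of the axon initial segment (0.38), and Rell2 (0.40), and Rbfox1 to Sla (0.54) and Elmod1 (0.65). Elavl2 was closest to Faxc (0.15) and Tbc1d16 (0.18), Nova2 to Pnmal2 (0.14) and Adgrl1 (0.15), Nova1 to Zfp954 (0.19) and Sox6 (0.21), Rbfox3 to Tanc2 and Wnk2 (0.27 each), and Elavl4 to Nr6a1 and Cd24a (0.30 each). Among the members, Celf3 had rank 35 in closeness to Celf4, and Celf4 rank 51 in closeness to Celf3 (0.75 each). Nova2 had rank 86 in closeness to Elavl4 (0.38). Nova2 differed from Elavl2 by 0.37 (rank 255 in closeness to Elavl2), Elavl4 by 0.52 (rank 1158) and Rbfox1 by 3.11 (rank 12290). The measure is not scaled to how much a gene varies. Its median over the genes compared was 0.85 for Elavl2 and 3.6 for Rbfox1.

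Other RNA-binding regulators of neurons and progenitors went both ways. Of 31 tested genes of this list (Lin28a, with at most 3 counts per group, was not tested), 9 were lower and 4 higher in null differentiating cells by edgeR, beside 22.0% and 24.3% of all genes, with a median log2 fold change of -0.07. Khdrbs3, a splicing regulator of the STAR family, had 43.2 ± 1.60 CPM in null cells, against 143 ± 27.1 CPM in intact ones in differentiating culture (log2 fold change -1.73 ± 0.12, edgeR adjusted p = 9.4e-08). Igf2bp2, an mRNA-binding protein of progenitors, had 6.39 ± 3.57 and 35.0 ± 10.4 CPM (-2.44 ± 0.32, edgeR adjusted p = 2.7e-05). Lin28b, which blocks let-7 maturation, had 0 counts over the null and 138 over the intact differentiating libraries, at least 54.3-fold lower in null cells with a floor of 3 counts over the group.

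In proliferating cells 9 were lower and 4 higher in null cells, beside 19.7% and 19.0% of all genes. Pcbp4, a poly(C)-binding protein, had 50.3 ± 11.2 CPM in null, against 204 ± 10.9 CPM in intact proliferating cells (-2.02 ± 0.13, edgeR adjusted p = 6.5e-08), and Cpeb3, a regulator of translation at synapses, 11.3 ± 1.72 and 5.54 ± 1.09 CPM (1.03 ± 0.17, edgeR adjusted p = 0.00027). Ptbp1, the splicing repressor of progenitors, fell upon differentiation to 150 ± 11.3 CPM in null differentiating, against 384 ± 42.6 CPM in null proliferating cells, and to 137 ± 25.7 CPM in intact differentiating, against 343 ± 27.5 CPM in intact proliferating cells. The log2 changes were -1.35 in null and -1.32 in intact cells (edgeR adjusted p = 1.9e-07 and 2.7e-07), and their difference was -0.03 (95% interval -0.37 to 0.31, adjusted p = 0.913). Of the 31 genes, 10 rose and 16 fell upon differentiation in null cells, beside 34.6% and 34.4% of all genes. In intact cells 8 rose and 13 fell, beside 36.7% and 35.3% of all genes. The responses of 5 differed, 3 higher and 2 lower in null cells, beside 12.7% and 9.93% of all genes.

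Of 10 mRNAs described as bound and stabilised by neuronal ELAVL proteins, 3 were lower and 2 higher in null differentiating cells by edgeR, near the 22.0% and 24.3% of all genes. Gap43, a growth cone protein that is also on the pan-neuronal list, had 73.9 ± 15.3 CPM in null cells, against 210 ± 157 CPM in intact ones in differentiating culture (log2 fold change -1.51 ± 0.35, edgeR adjusted p = 0.00283), with overlap. Bdnf, a neurotrophin, had 0.0818 ± 0.0768 and 3.36 ± 2.05 CPM (-5.26 ± 0.92, adjusted p = 0.00025), and Ache, the acetylcholinesterase gene, 0.405 ± 0.0993 and 2.52 ± 2.62 CPM (-2.64 ± 0.61, adjusted p = 0.00233). Cdkn1a, the cell cycle inhibitor p21, was higher in null cells with 41.4 ± 5.82 CPM, against 11.4 ± 2.44 CPM in intact cells (1.85 ± 0.31, edgeR adjusted p = 0.00020). The response to differentiation of Ache differed by -5.73 on the log2 scale, null minus intact (edgeR adjusted p = 0.00027). In proliferating cells 2 of the 10 were lower and 2 higher, near the 19.7% and 19.0% of all genes, and Ache was among those higher, with 21.5 ± 9.85 CPM in null, against 2.51 ± 0.471 CPM in intact cells (3.09 ± 0.55, edgeR adjusted p = 0.00046).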

How the data were processed

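Per the labels, polyadenylated RNA was sequenced as 75-base pairs. The authors deposited raw counts per Entrez gene with the gene model length, 1 library per file, and per the submitters' processing notes used bcl2fastq, featureCounts and mm10. Aligner, versions and strand setting: not given in the sources used here. Of 27179 identifiers, 25275 matched a symbol in the RefSeq gene table (GRCm38, to which mm10 corresponds).

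The model was edgeR 4.0.16 under R 4.3.3 (filterByExpr, minimum count 10, 15177 genes; TMM scaling; glmQLFit with 1 mean per group over 16 libraries; glmQLFTest). Benjamini-Hochberg adjustment ran over all genes tested, and an adjusted p under 0.05 was called. SE was the unshrunken log2 fold change over the root of F, and intervals are normal 95% intervals. No library was identical to another, and replicates correlated at 0.979 to 0.999. The script was tested on simulated data. Alternatives used DESeq2 1.42.0, other scalings and filters, a replicate block, fewer libraries and each library left out.

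The members, the lists and the omission of both intact libraries numbered 1 were chosen with earlier results of these data known. Named were all members and paralogs, up to 4 called genes per other list and comparison with the lowest adjusted p (not all are printed), list genes at 0, and the 2 genes most like each member (prior count 2, mean of at least 2 CPM in the highest group). Levels are relative to each library. P-values measure the spread between libraries, each taken as independent. The main fit used 1 estimate of the spread per gene from all 16 libraries. The spread in 1 group therefore affects the p-values of comparisons between other groups.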

Additional observations from a re-analysis of the deposited data

Results flagged for a closer look

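In groups of 4, the highest or lowest library was set apart from the other 3 by Dixon's criterion in 9 of 60 checks over members and paralogs; chance flags about 1 in 20 groups. In intact proliferating cells, 6 genes had a library apart from the rest: Elavl3 at 60.5 CPM, Celf3 at 10, Celf5 at 8.24 and Rbfox1 at 2.08 (each the highest, replicate 1), Elavl4 at 42.6 (the lowest, replicate 1) and Nova1 at 106 (the highest, replicate 4). In null proliferating cells, Celf5 at 8.33 and Rbfox1 at 0.198 were the highest (both replicate 4) and Celf1 at 325 CPM was the lowest (replicate 4). The response to differentiation differed between genotypes for Celf5 (null minus intact, -3.59 on the log2 scale) and Elavl3 (-1.49). Without null proliferating replicate 4, the log2 difference between null and intact proliferating cells was -0.42 for Celf5 (edgeR adjusted p = 0.63) and -0.31 for Nova1 (0.16), and without intact proliferating replicate 4 it was -0.42 for Nova1 (0.11). No cause was tested.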

How the results depend on the processing

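The numbers of members called in the comparisons kept within 1.5 times of the reported value, except in proliferating cells and for the difference of responses. In proliferating cells, null against intact, 2 members were called with the reported settings, 4 with DESeq2, 4 without both intact libraries numbered 1 and 5 with the 8 proliferating libraries alone, and 2 to 4 when 1 library was left out in turn. For the difference of responses, 2 were called with the reported settings, 4 without both intact libraries numbered 1, and 2 to 4 with 1 library left out. No value of a called member or paralog reversed. Of the gene-level values under the alternatives, 1718 kept their side of the threshold, 33 passed it newly and 31 no longer passed it. The rise of Elavl4 in intact cells was lost under 10 alternatives, its value ranging from 0.16 to 0.80 over all 24. Replicate numbers were not taken as pairs, since deviations of same-numbered libraries correlated at -0.0284 to 0.0331 in null cells and at 0.126, 0.123, -0.231 and 0.117 in intact cells. Across genotypes, where same-numbered libraries are of different foetuses, the correlations were -0.106 to 0.0631. For null against intact the replicate block joined same-numbered libraries across genotypes, and for the responses within a genotype. With these blocks, 3 members were called in proliferating and 5 in differentiating cells for null against intact. For the null response 8 were called, for the intact response 9, and for the difference 3. The block added a call for Rbfox1, in proliferating cells (-3.31, edgeR adjusted p = 0.033) and in the difference of responses (-7.15, 0.0062), and removed that of Elavl4 in the intact response (0.52, 0.085) and both of Celf1 between genotypes. Without intact differentiating replicate 4, the difference of responses for Rbfox1 was -7.87 and was called. The low counts of Rbfox1 limit what can be said of it in null and in proliferating cells.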
